A study of Gallus gallus with 5 samples.

Results

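The transcripts of untreated, regrowing feather follicles were ranked by abundance in the 2 wild-type RNA sequencing libraries, out of 5 libraries in the series. The follicles came from flight feathers of the chicken wing that had been plucked, and each library holds the RNA of 5 pooled follicles, so the values are averages over those follicles. The genotype label of both libraries is wild type, the source name is dermal papilla and the tissue is feather follicle. What the T4 in their titles stands for, the age of the birds, the time since plucking and whether a control vector was given are not stated in the sources used here. The other 3 libraries carried Wnt5a overexpression, lnc7831 knockdown or lnc3500 knockdown from lentiviral vectors and were not used. The table gives FPKM (fragments per kilobase of transcript, scaled to the number of mapped fragments), a level per length. Levels can thus be set beside each other between genes, with less certainty for short transcripts, whose levels depend most on how length was corrected. All 13736 of the table's 17108 entries that carry a gene name were ranked by the lower of their 2 values. Each pair of values below is that of wild-type library 1 and wild-type library 2, and nothing says whether the libraries came from separate birds. With 2 libraries of 1 group and no contrast, no test was made and every level is a description. Each fold between the libraries is the higher value over the lower.

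A feather follicle is a tube of epidermis wrapped around a mesenchymal pulp, set in a dermal sheath, with the dermal papilla at its base. After plucking, signals from the papilla drive the epidermal collar above it to divide, and the collar cells differentiate into barbs and rachis that are filled with keratins. WNT, BMP, FGF, Hedgehog, Notch and ectodysplasin signals and their secreted inhibitors are the pathways best known for patterning this tissue, and smooth muscle bundles and nerves attach to each follicle.

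Of the named entries 9330, or 67.9%, had at least 1 FPKM in both libraries and are called expressed here. At least 10 FPKM in both was reached by 4234 entries (30.8%), at least 100 by 438 (3.19%) and at least 1000 by 81 (0.590%). A further 594 entries reached 1 FPKM in 1 library only. The median expressed entry had 9.82 and 10.8 FPKM. Between the libraries 87.0% of the expressed entries lay within 2-fold, with a median absolute log2 ratio of 0.313 after adding 1 FPKM. Of the expressed entries 4312 (46.2%) were higher in library 1 and 5018 (53.8%) in library 2, with a median log2 ratio of library 2 over library 1 of 0.043. Counts of direction given for lists stand beside these shares, and counts of expressed members beside the 67.9% over all named entries. The rank correlation between the libraries across genes was 0.915, over 9330 entries that share the same 2 libraries.

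The FPKM summed to 986272 in library 1 and 860352 in library 2. The 10 highest entries of any kind held 48.2% and 42.6% of these sums. A single entry without a gene name, ENSGALG00000026592, had 200415 and 208769 FPKM and held 20.3% and 24.3%. Absolute depth cannot be read from FPKM. Among the 231 entries above 0 and below 0.15 FPKM in both libraries, 175 had a ratio within 1.5% of a ladder built from 1 to 3 fragments per library. On that ladder 1 fragment was worth 1.13 times as many FPKM in library 2 as in library 1. How this ratio relates to the depth of the libraries depends on any scaling between them, which the sources used here do not state.

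A value of 0 is not read as absence. Of the named entries 2218 were listed at 0 in both libraries, and some of them belong to genes that every cell uses. RPL34 and RPS26, parts of the ribosome, were listed at 0 in both libraries, as were EIF3K and BTF3 of the translation apparatus. CALR, a chaperone of the endoplasmic reticulum, and the actin-binding genes ACTN4 and TMSB10 were listed at 0 as well. Such entries are given only as listed at 0.

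**Figure D1:**
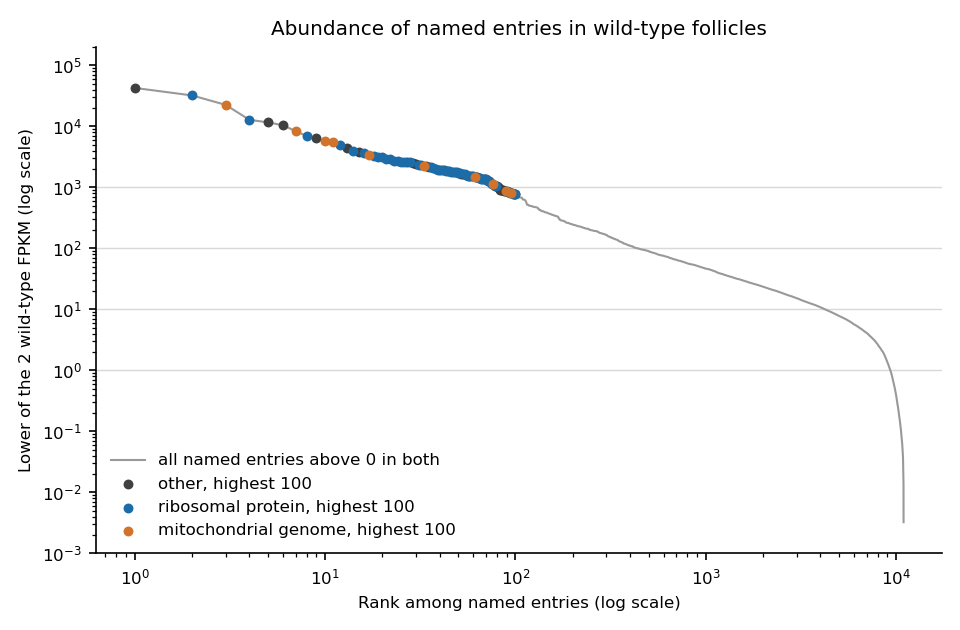
Lower of the 2 wild-type FPKM (vertical, log scale) against rank among named entries (horizontal, log scale), with the 100 highest entries drawn as points by kind and lines at 1, 10, 100 and 1000 FPKM. Ribosomal protein entries supply 52 of the 100 points and entries matched by name to the mitochondrial genome 10, and the curve crosses 1 FPKM at rank 9330.

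Genes of protein synthesis filled most of the top of the ranking. Entries with ribosomal protein names took 30 of the 50 highest places and 52 of the highest 100. Of 66 such entries 62 were expressed, all 62 of them at 100 FPKM or more in both libraries and 48 at 1000 or more, and the other 4 were listed at 0. Their median lower value was 1550.1 FPKM, against 4.30 FPKM over all named entries. They held 31.7% and 25.9% of the FPKM of named entries.

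RPL36, a protein of the large ribosomal subunit, was the highest of them with 75096 and 32107 FPKM. Its libraries differed by more than 2-fold, with the higher value in library 1. RPS17L, a small subunit entry, followed with 18026 and 12786 FPKM. RPL37A, of the large subunit, had 7419 and 6945 FPKM, and RPLP1, a protein of the ribosomal stalk, had 8749 and 4939 FPKM. Below these, ribosomal entries ran closely together, with RPL27 at 4516 and 3978 FPKM and RPS24, a small subunit protein, at 3591 and 3773 FPKM. RPS3A, of the small subunit, had 2720.4 and 2856 FPKM, nearly equal in both libraries. Without RPL36 the ribosomal entries held 24.0% and 21.7% of the remaining named FPKM. Of the 62 expressed entries, 51 were higher in library 1 and 11 in library 2. The translation factors beside them were also abundant. GNB2L1, a scaffold bound to the small subunit, had 1271 and 1557 FPKM, and NPM1, nucleophosmin of the nucleolus, had 994 and 919 FPKM. EEF1B2 and EEF2, elongation factors, had 950.2 and 897 FPKM (EEF1B2) and 405 and 697 FPKM (EEF2), while EIF4A2, an initiation helicase, had 838 and 735 FPKM. These lay below the main elongation factor. EF1A, listed under that name for elongation factor 1 alpha, which brings transfer RNA to the ribosome, had 3843 and 4614 FPKM. Of 26 translation factor entries 24 were expressed, and all 24 had at least 10 FPKM in both libraries.

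Genes of the mitochondrial genome formed the next group. Of the 13 protein genes that RefSeq places on the chicken mitochondrial genome, 12 had an entry of the same name. The counts and shares below cover these 12 and leave out the entry named Cu, described further below. All 12 were above 100 FPKM in both libraries, 6 ranked among the highest 50 and 10 among the highest 100. ATP8, a small subunit of the ATP synthase, led them with 46478 and 22524 FPKM. Levels of short transcripts depend most on how length was corrected, and how far this sets the rank of ATP8 was not tested. COX3 and COX1, core subunits of cytochrome c oxidase, had 8361 and 10044 FPKM (COX3) and 5658 and 8281 FPKM (COX1). ATP6, the ATP synthase subunit of the proton channel, had 5644 and 6796 FPKM. ND3, a subunit of complex I, had 5097 and 3438 FPKM, and cytb, cytochrome b, had 2247 and 2799 FPKM. ATP8 was about 2-fold higher in library 1, while COX3, COX1, ATP6 and cytb were each higher in library 2. Together the 12 entries held 10.7% and 10.3% of the named FPKM, close to the same share in both libraries. ND6 was the lowest with 639 and 687 FPKM.

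The remaining 14 of the 50 highest entries came from several cell functions. S100A10, an S100 family protein that partners annexin A2 at membranes, was the highest named entry of all with 55529.7 and 42678 FPKM. MT1, a metal-binding metallothionein, had 40219 and 11645 FPKM, more than 3-fold apart between the libraries. CHURC1, the zinc-binding Churchill protein known from neural induction in chick embryos, had 14927 and 10436 FPKM. LGALS1, a secreted galectin, had 4697 and 4462 FPKM. DSTN, which cuts actin filaments, had 671 and 518 FPKM, and TUBB4B, a beta-tubulin, had 449 and 356 FPKM, outside the highest 50. Of cytoskeletal genes inside it ACTB, cytoplasmic beta-actin, had 2578 and 2594 FPKM, which agree within 1%. ACTG1, cytoplasmic gamma-actin, had 1914 and 2752 FPKM, and TMSB4X, which sequesters actin monomers, had 2391 and 1923 FPKM. SPARC, a collagen-binding matrix protein, had 2605 and 2394 FPKM and was the highest gene of the matrix lists. PPIA, a prolyl isomerase, had 2974 and 2226 FPKM. FTH1, the ferritin heavy chain that stores iron, had 2158 and 2833 FPKM. B2M, the light chain of MHC class I molecules, had 2527 and 5780.4 FPKM, over 2-fold apart and higher in library 2. APOA1, the main apolipoprotein of high-density lipoprotein, had 2433 and 1773 FPKM. An entry that the table names only Cu had 7258 and 6388 FPKM and is given no role here. Its Ensembl identifier lies between those of the mitochondrial genes ATP6 and COX1. Whether it is the mitochondrial gene without an entry of its name was not tested. Of the 50 highest entries 46 lay within 2-fold between the libraries. The last place inside was taken by RPS15A with a lower value of 1751 FPKM, and the first outside by RPL27A with 1733.

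The labelled source, dermal papilla, was set against marker genes of the cell types a follicle could hold. Epidermal markers were expressed beside dermal ones. The tissue label, feather follicle, covers both, and which cells the RNA came from was not tested. All 12 entries of the fibroblast list, all 13 of the smooth muscle list, 25 of 27 of the epidermal list and 18 of 23 of the dermal papilla list were expressed, beside 67.9% of all named entries. In pooled tissue, fewer cells of a type and less RNA per cell cannot be told apart.

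**Figure D2:**
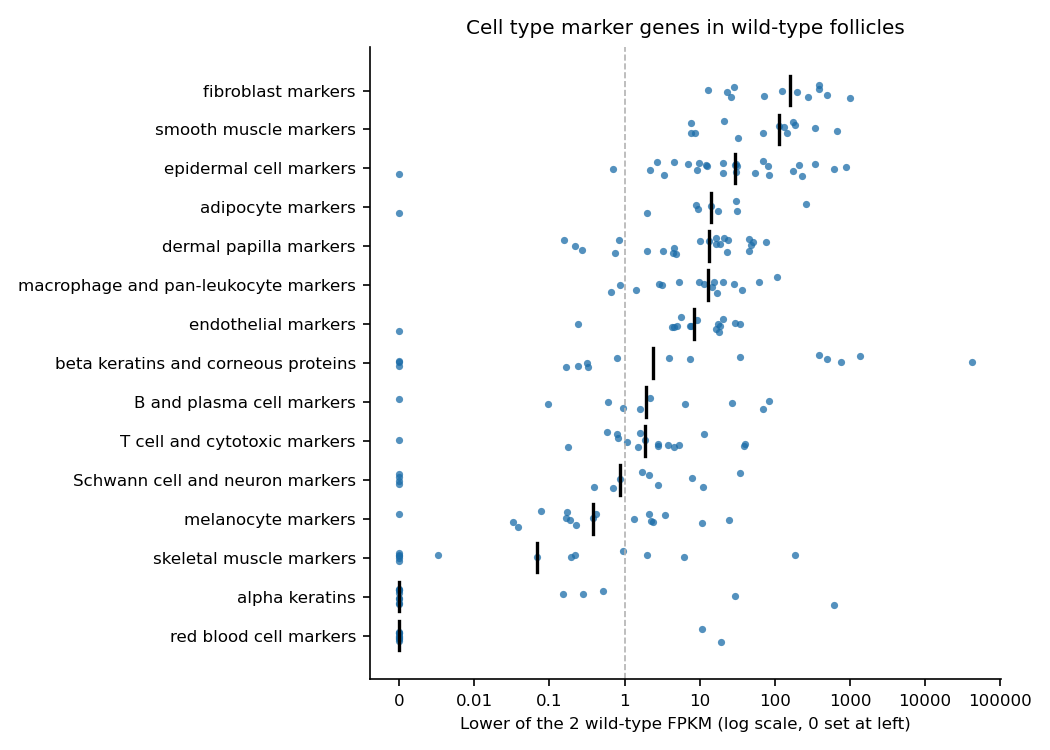
Lower of the 2 wild-type FPKM (horizontal, log scale, 0 set at the left edge) for each entry of 15 marker lists, with the list median as a black bar and a dashed line at 1 FPKM. Fibroblast markers have the highest median, 161.7 FPKM, and alpha keratins and red blood cell markers have a median of 0.

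Epidermal genes spanned keratin, junction and transcription factor genes, with a median lower value of 29.5 FPKM. SFN, the 14-3-3 protein of stratified epithelia, had 1180.4 and 877 FPKM. KRT14, the type I keratin of basal keratinocytes, had 621 and 1743 FPKM, and KRT15, another basal type I keratin, had 29.5 and 285 FPKM. Both keratins were more than 2-fold higher in library 2, KRT15 by almost 10-fold. Desmosome genes were closer between the libraries. JUP, plakoglobin, had 339 and 400.1 FPKM, DSP, desmoplakin, had 285 and 229 FPKM, and PKP1, plakophilin 1, had 179 and 177 FPKM. PERP, another desmosome gene, had 239 and 211 FPKM. EPCAM, an epithelial adhesion molecule, had 175 and 84.3 FPKM, and CLDN1, a tight junction claudin, had 171 and 80.1 FPKM. Both were about 2-fold higher in library 1. The epidermal transcription factors were lower. TFAP2A had 31.3 and 45.6 FPKM, and TP63, the factor of basal epidermis, had 12.1 and 21.3 FPKM. ELF3, an epithelial factor of differentiating cells, was near the threshold with 0.712 and 1.41 FPKM, and KRT5 was listed at 0.

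Alpha keratins other than KRT14 and KRT15 were near or at 0 under gene names. KRT222, KRT20 and KRT12 had 1.01 and 0.516 FPKM (KRT222), 0.279 and 1.49 FPKM (KRT20) and 0.154 and 1.04 FPKM (KRT12), each at 1 FPKM in 1 library only. Of 13 alpha keratin entries 2 were expressed and 8 were listed at 0, among them KRT75, the rachis alpha keratin whose mutation causes frizzled feathers in chicken. Of the named beta keratins, the corneous proteins of feathers and scales, BKJ had 3.93 and 95.3 FPKM, F-KER had 0.237 and 2.61 FPKM and FK27 had 0.30 and 0.167 FPKM, and both FK21 entries were listed at 0. BKJ and F-KER were each over 10-fold higher in library 2. Of the 31 genes of the beta keratin and corneous protein list 15 matched a named entry, and of the 24 alpha keratin genes 13. Entries without a gene name were not ranked, so these values do not give the level of feather keratins as a whole. Small calcium-binding proteins of the beta keratin and corneous protein list were far above the named beta keratins. S100A16 had 1359.9 and 2277 FPKM, S100A11 had 1271 and 767 FPKM, S100A4, of the same family and made by mesenchyme too, had 393 and 678 FPKM, and CALML3, an epithelial calmodulin-like protein, had 658 and 493 FPKM. PPL, periplakin of the cornified envelope, had 34 and 37.2 FPKM. TGM3, a cross-linking transglutaminase of that envelope, had 30.9 and 7.43 FPKM, higher in library 1. MT4, a metallothionein of stratified epithelia in mammals, had 4981 and 1674 FPKM.

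Mesenchymal genes had the highest median of any marker list, 161.7 FPKM over the 12 fibroblast entries. COL1A2, a chain of type I collagen, had 1213 and 1003 FPKM. LUM and DCN, small proteoglycans that bind collagen, had 499.7 and 526 FPKM (LUM) and 463 and 392 FPKM (DCN). PRRX1, a homeobox factor of limb mesenchyme, had 199 and 563 FPKM, and THY1, a surface glycoprotein of fibroblasts, had 124 and 276 FPKM. Both were more than 2-fold higher in library 2, while the collagen and proteoglycan genes lay within 2-fold. The entry named vimentin, the mesenchymal intermediate filament, had 2080.5 and 1647 FPKM. PDGFRA and PDGFRB, receptors of mesenchymal and mural cells, had 23.2 and 24.1 FPKM (PDGFRA) and 12.9 and 25.6 FPKM (PDGFRB).

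Dermal papilla genes were at middle levels, with a list median of 13.3 FPKM and no entry at 100 or more in both libraries. SFRP2, a secreted WNT inhibitor, led with 75.8 and 77.1 FPKM. BMP4 had 50.8 and 142 FPKM, SPON1, the matrix protein spondin 1, had 73.5 and 47.9 FPKM, and SOX18, a transcription factor of papilla and vessels, had 45.4 and 76.4 FPKM. FST, the activin and BMP inhibitor follistatin, had 44.7 and 47.2 FPKM. ALPL, the phosphatase used as a papilla stain, had 23.8 and 37.1 FPKM, and VCAN, the proteoglycan versican, had 37.2 and 21 FPKM. NCAM1, an adhesion molecule of the feather papilla, had 17.2 and 16.3 FPKM, and these lower entries were within 2-fold. Several markers known from the mouse papilla did not reach 1 FPKM in both libraries. SOX2 had 0.743 and 0.825 FPKM, CORIN, a serine protease, had 3.18 and 0.158 FPKM, and NOG, the BMP inhibitor noggin, had 2.52 and 0.274 FPKM.

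Smooth muscle genes were all expressed, with a median of 113.5 FPKM. TAGLN, an actin-binding protein of smooth muscle, had 677 and 1391 FPKM. TPM1, a tropomyosin, had 387 and 185 FPKM. ACTG2, smooth muscle gamma-actin, had 393 and 339.7 FPKM, and DES, the muscle intermediate filament desmin, had 305 and 173 FPKM. MYH11, smooth muscle myosin, had 147 and 150.2 FPKM and MYLK, the kinase that activates it, had 68.8 and 69.2 FPKM, nearly equal in both libraries. MYOCD, the coactivator that drives smooth muscle genes, had 7.65 and 10.8 FPKM. Skeletal muscle genes were mostly near 0, with 3 of 13 entries expressed. ACTA1, skeletal alpha-actin, was the highest with 292 and 183 FPKM. DMD, dystrophin, which smooth muscle also makes, had 6.23 and 6.46 FPKM. TNNC2 and TNNI2, fast troponins, had 1.76 and 0.964 FPKM (TNNC2) and 0.984 and 0.216 FPKM (TNNI2). TNNT3, fast troponin T, had 2.0 and 2.07 FPKM, MB, myoglobin, had 0.193 and 0.212 FPKM, and MYL1, MYOG and NEB were listed at 0.

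Vascular genes were present at low to middle levels, 14 of 16 expressed with a median of 8.49 FPKM. PECAM1, the endothelial adhesion molecule, had 34.8 and 44.2 FPKM, CDH5, vascular cadherin, had 18.4 and 23.8 FPKM, and EMCN, endomucin, had 20.6 and 18.1 FPKM. KDR, a VEGF receptor, had 4.49 and 4.54 FPKM. ENG, endoglin, was further apart with 29.9 and 84.3 FPKM, as was cldn5, the endothelial claudin, with 20.2 and 79.6 FPKM. Of the 14 expressed entries 12 were higher in library 2. PROX1, the factor of lymphatic vessels, had 0.274 and 0.239 FPKM.

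Of the leukocyte lists, that of macrophage and pan-leukocyte genes had the highest median, 13.1 FPKM, with 14 of 16 entries expressed. CTSS, a lysosomal protease of antigen-presenting cells, had 107 and 257 FPKM. C1QA and C1QB, chains of the complement component C1q, had 36.9 and 96.6 FPKM (C1QA) and 28.4 and 95.9 FPKM (C1QB). LAPTM5, a lysosomal protein of leukocytes, had 61.1 and 76.3 FPKM, and LCP1, their actin-bundling plastin, had 20.7 and 33.7 FPKM. CSF1R, the macrophage growth factor receptor, had 14.7 and 21.8 FPKM, and PTPRC, the pan-leukocyte phosphatase, had 9.68 and 11.1 FPKM. All 14 expressed entries were higher in library 2, and the summed list was 337 FPKM in library 1 and 748 in library 2. Its part in other differences between the libraries was not tested. In the T cell list 12 of 17 entries were expressed, with a lower median of 1.87 FPKM. Over all named entries the share and median were 67.9% and 4.30 FPKM. GATA3, a T cell factor that epidermis also expresses, had 39.7 and 41.7 FPKM. CD247, another receptor chain, had 5.38 and 5.28 FPKM, and GZMA, a granzyme of cytotoxic cells, had 7.94 and 4.61 FPKM. CD3D, a chain of the T cell receptor complex, had 41.8 and 38.6 FPKM and CD3E had 15.1 and 11.6 FPKM, while the co-receptors CD8A and CD4 had 6.87 and 3.76 FPKM (CD8A) and 3.02 and 2.81 FPKM (CD4). Among 10 B and plasma cell entries 6 were expressed, beside 67.9% of all named entries. IGJ, the joining chain of antibodies, had 90.4 and 68.7 FPKM and MZB1, a plasma cell chaperone, had 27.3 and 32.3 FPKM, while CD79B, a chain of the B cell receptor, had 2.21 and 3.43 FPKM. XBP1, a factor of secretory cells of many kinds, had 90 and 82.7 FPKM, and BLNK, a B cell adaptor, had 8.07 and 6.4 FPKM. IGJ and MZB1 thus lay wholly above CD79B.

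Pigment, nerve, blood and fat genes gave a mixed picture. Of 17 melanocyte entries 7 were expressed. MITF, the melanocyte master factor that other cells also express, had 10.7 and 20.4 FPKM, and Rab27a, which carries melanosomes, had 31.3 and 24.5 FPKM. EDNRB2, the endothelin receptor of avian melanoblasts, had 3.46 and 5.64 FPKM, and GPR143, a melanosome receptor, had 3.14 and 2.36 FPKM. The pigment enzymes were lower. TYR, tyrosinase, had 1.58 and 0.386 FPKM, TYRP1 had 3.01 and 0.189 FPKM, DCT had 0.0665 and 0.0377 FPKM, and PMEL was listed at 0. For nerve, PMP22, a myelin protein also made by fibroblasts, had 34.7 and 36.4 FPKM, SOX10, a Schwann cell and melanocyte factor, had 2.13 and 8.77 FPKM, TUBB3, a neuronal tubulin, had 16.4 and 11.2 FPKM, S100B had 4.87 and 2.83 FPKM, and NEFL, a neurofilament chain, had 12.6 and 8.01 FPKM. Of 10 red blood cell entries 7 were listed at 0, including HBAA, HBAD and 1 of the 2 HBZ entries. HBG2, the one measured globin above 1 FPKM, had 12.6 and 10.6 FPKM, and CA2, carbonic anhydrase, had 125 and 19.3 FPKM. Fat genes were expressed in 8 of 9 cases. ADIPOQ, the adipokine adiponectin, was the highest with 256 and 364 FPKM. FABP4, a fatty acid carrier of fat cells, had 239 and 9.43 FPKM, and PLIN1, a coat protein of lipid droplets, had 16.4 and 1.97 FPKM. Genes of lipid synthesis and storage that other cells share lay nearer between the libraries. SCD and FASN, enzymes of fatty acid synthesis, had 31.7 and 32.2 FPKM (SCD) and 26 and 17.8 FPKM (FASN), PLIN2 had 41.8 and 30.8 FPKM, and LPL, a lipase, had 21.6 and 14.3 FPKM. FABP4 and PLIN1 were over 8-fold higher in library 1, whereas ADIPOQ was higher in library 2.

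Among WNT genes, receptors and secreted modulators were at higher median levels than ligands. Of 17 WNT ligand entries 10 were expressed, beside 16 of 16 receptors and co-receptors and 15 of 15 secreted modulators. Over all named entries the share was 67.9%. The median lower values were 2.11 FPKM for ligands, 10.6 for receptors and 11.3 for modulators. Summed over the lists, ligands reached 151 FPKM in library 1 and 320.1 in library 2, and modulators 853 and 920.1.

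WNT11 and WNT5A, ligands of non-canonical signalling, were the highest by the lower value, with 39.5 and 47.6 FPKM (WNT11) and 29.7 and 64.3 FPKM (WNT5A). WNT5B had 25.8 and 48.9 FPKM and WNT4 had 18.2 and 94.1 FPKM. The ranges of these 4 ligands overlapped, so their order is not settled by 2 libraries. Wnt6, a ligand of surface ectoderm, had 9.89 and 34.7 FPKM, and WNT2B had 13.4 and 3.52 FPKM. WNT16 had 6.09 and 3.36 FPKM. Wnt10a, known for feather and hair development, had 3.31 and 12 FPKM. WNT7B and WNT7A had 2.25 and 2.11 FPKM (WNT7B) and 1.55 and 1.87 FPKM (WNT7A). Ligands below 1 FPKM in both libraries were Wnt8c, WNT11B and WNT8b, and Wnt3 and WNT9b were listed at 0. Wnt3a and WNT9a reached 1 FPKM in library 2 only, with 0.739 and 5.06 FPKM (Wnt3a) and 0.214 and 1.79 FPKM (WNT9a).

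The receptors ranged over more than 10-fold. PTK7, a pseudokinase co-receptor of planar polarity, had 41.4 and 107 FPKM. FZD8, FZD1 and FZD7 of the frizzled family had 39.7 and 31.6 FPKM (FZD8), 26.8 and 70.9 FPKM (FZD1) and 24.8 and 35.1 FPKM (FZD7). RYK and ROR1, receptors that bind WNT5A, had 24.9 and 24.9 FPKM (RYK) and 29.9 and 21.4 FPKM (ROR1), while ROR2, another WNT5A receptor, had 2.33 and 2.95 FPKM. ROR1 was thus wholly above ROR2 in both libraries. Of the co-receptors of beta-catenin signalling, LRP5 had 6.94 and 6.25 FPKM and LRP6 had 1.64 and 1.78 FPKM. LGR4 and LGR5, receptors of the R-spondins, had 12.1 and 12.3 FPKM (LGR4) and 3.79 and 1.99 FPKM (LGR5). RSPO1 was the highest R-spondin, their ligands, with 14.4 and 13.3 FPKM.

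Secreted inhibitors were the highest of the modulators. SOSTDC1, which blocks WNT co-receptors and BMP, had 447 and 283 FPKM and lay wholly above all other WNT modulators. DKK3, a dickkopf family member, had 93.1 and 106 FPKM. SFRP2 and SFRP1, which bind WNT proteins, had 75.8 and 77.1 FPKM (SFRP2) and 57 and 68.1 FPKM (SFRP1), within 1.5-fold between the libraries. FRZB and SFRP4, of the same family, had 73.4 and 157 FPKM (FRZB) and 52.5 and 142 FPKM (SFRP4), both over 2-fold higher in library 2. WIF1 had 1.98 and 6.76 FPKM and was among the lowest. Inside the cell CTNNB1, beta-catenin, had 263 and 217 FPKM, wholly above every secreted modulator except SOSTDC1. AXIN2 and NKD1, feedback genes of the pathway, had 9.44 and 18.8 FPKM (AXIN2) and 6.54 and 9.18 FPKM (NKD1). GSK3B, a kinase of the destruction complex, had 15.2 and 13.7 FPKM, and DVL1, which relays the receptor signal, had 11.4 and 17.7 FPKM. MYC and CCND1, target genes, had 15.2 and 23 FPKM (MYC) and 10.6 and 13.3 FPKM (CCND1), and TCF7L1 was listed at 0.

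**Figure D3:**
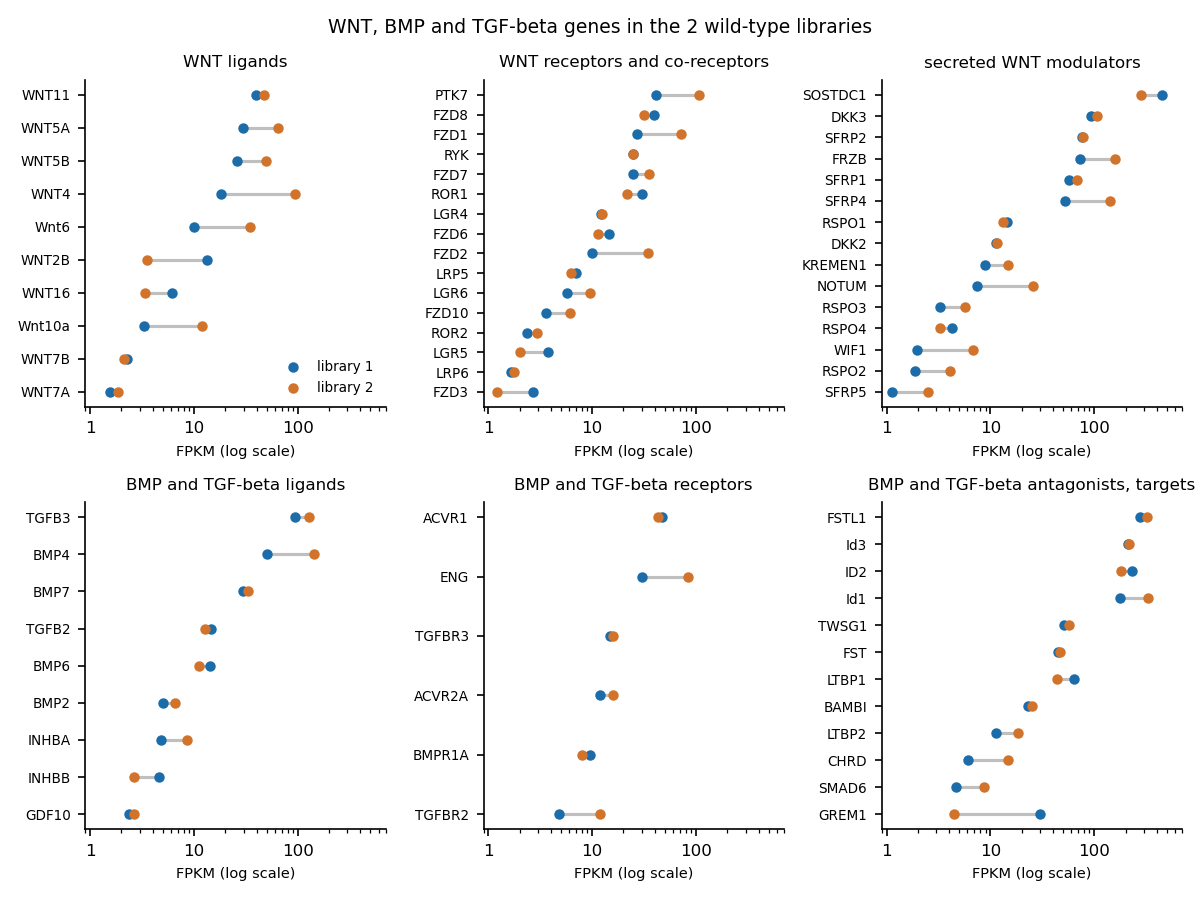
FPKM (horizontal, log scale) in wild-type library 1 and library 2 for each entry with at least 1 FPKM in both, in 6 lists, joined by a grey line. SOSTDC1 at 447 and 283 FPKM lies furthest right among the WNT genes, and FSTL1, ID2, Id3 and Id1 among the BMP genes.

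BMP and TGF-beta signalling had a higher median in the list of antagonists and targets, 11.2 FPKM, than among receptors, 7.97, or ligands. That list mixes secreted antagonists with intracellular targets, so its median does not describe the antagonists alone. Of 14 ligand entries 9 were expressed, with a median of 3.70 FPKM, beside 67.9% and 4.30 FPKM over all named entries. TGFB3 had 94.7 and 128 FPKM and BMP4 had 50.8 and 142 FPKM, and their ranges overlapped. TGFB2 and BMP6 had 14.6 and 12.6 FPKM (TGFB2) and 14.1 and 11.2 FPKM (BMP6). BMP7, an epidermal and mesenchymal ligand, had 29.8 and 33.2 FPKM, and BMP2, a ligand of barb formation, had 5.04 and 6.5 FPKM. INHBA, an activin chain, had 4.78 and 8.64 FPKM. BMP5, GDF8, GDF5 and BMP15 were below 1 FPKM in both libraries, and NODAL was listed at 0. Type I receptors included ACVR1 with 47.4 and 43.3 FPKM and BMPR1A with 9.51 and 7.97 FPKM, and BMPR1B had 0.627 and 1.2 FPKM. TGFBR3, a co-receptor, had 14.9 and 15.8 FPKM, ACVR2A, a type II receptor, had 11.8 and 15.9 FPKM, and ACVRL1 was listed at 0. ACVR1 lay wholly above the other type I receptors measured. FSTL1, a secreted follistatin-like protein, had 278 and 319 FPKM. Id3, ID2 and Id1, which are direct BMP targets, had 211 and 214 FPKM (Id3), 229 and 181 FPKM (ID2) and 178 and 333 FPKM (Id1), wholly above every BMP and TGF-beta ligand measured. TWSG1, a secreted BMP modulator, had 51.5 and 57.1 FPKM, and FST had 44.7 and 47.2 FPKM. CHRD, chordin, had 6.15 and 14.9 FPKM, and GREM1, gremlin, had 30.1 and 4.43 FPKM, almost 7-fold apart and higher in library 1. SMAD7, FSTL3 and CER1 were listed at 0.

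FGF ligands were few. Of 17 entries 5 were expressed and 5 listed at 0. FGF10 and FGF7, mesenchymal ligands for epithelial receptors, had 18.6 and 22.7 FPKM (FGF10) and 36.3 and 16.4 FPKM (FGF7), with overlapping ranges. FGF12, an intracellular family member, had 5.01 and 9.36 FPKM, FGF18 had 2.58 and 2.81 FPKM, and FGF22 had 1.95 and 6.62 FPKM. FGF8, FGF4, FGF3, FGF16 and Fgf19 were listed at 0, and FGF13, FGF1, FGF20, FGF6 and FGF23 were below 1 FPKM in both libraries. Of the receptors FGFR3, FGFR2 and FGFR1 had 27.3 and 24.2 FPKM (FGFR3), 21.5 and 33.5 FPKM (FGFR2) and 16 and 33.4 FPKM (FGFR1), again overlapping, and FGFR4 was lower with 2.55 and 8.13 FPKM. The feedback inhibitors SPRY1 and SPRY2 had 8.45 and 10.7 FPKM (SPRY1) and 8.26 and 9.61 FPKM (SPRY2). Both SPRY4 entries carried the same values, 0.485 and 0.805 FPKM, and the klotho co-receptors KL and KLB were below 0.1 FPKM.

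Hedgehog genes were led by a co-receptor, an intracellular inhibitor and the signal transducer. Of 15 entries 11 were expressed, with a median of 4.13 FPKM, beside 67.9% and 4.30 FPKM over all named entries. SHH, the ligand of barb ridge patterning, had 4.28 and 8.37 FPKM. PTCH1, a receptor, had 4.41 and 3.58 FPKM, and SMO, the signal transducer, had 14.7 and 25.3 FPKM. BOC, a co-receptor, had 30.8 and 38.2 FPKM, CDON, another, had 5.38 and 14.4 FPKM, and SUFU, an intracellular inhibitor, had 52.6 and 21.7 FPKM. GLI2 and GLI3, the effector factors, had 9.64 and 15.6 FPKM (GLI2) and 4.13 and 5.26 FPKM (GLI3), while GLI1 was listed at 0. HHIP, a binding protein of the ligand, had 1.73 and 0.845 FPKM, and IHH, another ligand, was below 1 FPKM in both libraries.

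Notch genes were expressed in 15 of 17 cases, with a median of 6.57 FPKM. NOTCH2 had 31.5 and 33.9 FPKM and NOTCH1 had 6.55 and 14.5 FPKM, so NOTCH2 lay wholly above NOTCH1. The ligands JAG2 and JAG1 had 14.9 and 18.3 FPKM (JAG2) and 14.1 and 15.8 FPKM (JAG1) and overlapped, and DLL1 had 6.57 and 11.4 FPKM. LFNG, which modifies Notch by adding sugar, had 23.7 and 56.5 FPKM. NRARP and HEY1, Notch targets, had 28.2 and 70.8 FPKM (NRARP) and 11.9 and 15.9 FPKM (HEY1), and HES1, another target, had 3.14 and 8.14 FPKM. HES5 was below 1 FPKM in both libraries. Of the expressed Notch entries 12 were higher in library 2 and 6 were over 2-fold apart.

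All 6 ectodysplasin entries were expressed. EDA, the ligand that starts feather placodes, had 19.1 and 38.6 FPKM, its receptor Edar had 6.74 and 7.29 FPKM, and the adaptor EDARADD had 3.79 and 3.53 FPKM. EDA2R and TNFRSF19, receptors of the same superfamily, had 4.32 and 11.7 FPKM (EDA2R) and 10.1 and 10.3 FPKM (TNFRSF19), and TRAF6, a downstream adaptor, had 3.96 and 3.9 FPKM. EDA lay wholly above the receptor and the adaptor. In the retinoic acid list 8 of 17 entries were expressed. CRABP2, which carries retinoic acid to its receptor, had 117 and 188 FPKM. CYP26B1, an enzyme that degrades retinoic acid, had 36 and 73.7 FPKM, and ALDH1A2, an enzyme that makes it, had 0.463 and 2.83 FPKM. CYP26B1 was thus wholly above ALDH1A2, a comparison of 1 enzyme of each kind. RBP5, a retinol carrier, had 54.2 and 36.6 FPKM, and DHRS3, which turns retinal back to retinol, had 15.2 and 13.2 FPKM. RARB and RXRA, nuclear receptors, had 2.88 and 4.55 FPKM (RARB) and 5.71 and 13 FPKM (RXRA), and RARA was listed at 0. RBP4 was below 1 FPKM in both libraries, as were CYP26A1 and CYP26C1, of the same family as CYP26B1.

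**Figure D4:**
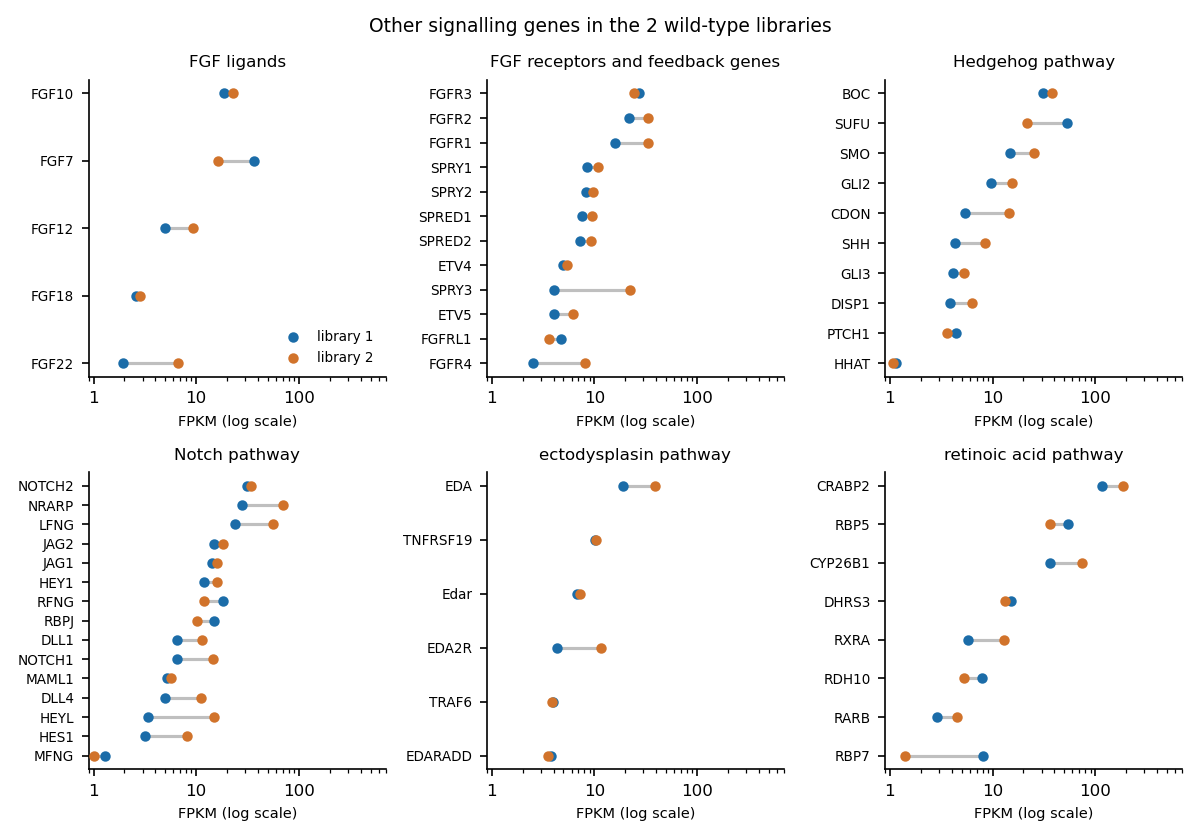
FPKM (horizontal, log scale) in wild-type library 1 and library 2 for the reported entries with at least 1 FPKM in both, in the FGF, Hedgehog, Notch, ectodysplasin and retinoic acid lists, joined by a grey line. CRABP2 at 117 and 188 FPKM is the highest of the entries drawn, and 5 FGF ligands pass the threshold.

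Among other growth factors 26 of 33 ligand entries were expressed. MDK, the heparin-binding factor midkine, had 731 and 1877 FPKM, and MIF, an inflammatory cytokine, had 881 and 421 FPKM. CTGF, CYR61 and NOV, matricellular proteins of 1 family, had 155 and 188 FPKM (CTGF), 162 and 64.6 FPKM (CYR61) and 101 and 39.5 FPKM (NOV). IGF2, insulin-like growth factor 2, had 42.5 and 27.5 FPKM. VEGFA, the main angiogenic factor, had 3.73 and 5.92 FPKM, and KITLG, the melanocyte growth factor, had 3.43 and 2.78 FPKM. EGF, NRG1, BDNF and GDNF were below 1 FPKM in both libraries, and CSF1 was listed at 0. Receptor entries were expressed in 26 of 34 cases, 22 of them higher in library 2. EDNRA, an endothelin receptor, was the highest with 61.6 and 73.3 FPKM. CXCR7, a chemokine receptor, had 29 and 33.3 FPKM. EGFR and ERBB2, receptors of the EGF family, had 10.9 and 12.6 FPKM (EGFR) and 8.41 and 17.5 FPKM (ERBB2). KIT had 2.57 and 2.24 FPKM, and NR3C1, the glucocorticoid receptor, had 1.51 and 2.16 FPKM. ERBB4 and PTH1R were below 1 FPKM in both libraries, and VDR was listed at 0. Of the ephrin system EFNB1 had 79.8 and 133 FPKM, above its receptors EPHB3 with 19.6 and 31.8 FPKM and EPHB2 with 7.92 and 7.42 FPKM. EFNA5, another ephrin, had 7.87 and 6.89 FPKM, EPHA1 had 16.1 and 6.87 FPKM, and EPHA7 was below 1 FPKM in both libraries.

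Some matrix genes were among the most abundant of the follicle. At least 100 FPKM in both libraries was reached by 5 of 45 non-collagen dermal matrix entries and 4 of 20 fibrillar and associated collagen entries. None of the 28 basement membrane entries reached it, and the share over all named entries was 3.19%. Of 45 non-collagen dermal matrix entries 42 were expressed, 30 of them at 10 FPKM or more in both libraries, with a median of 25.9 FPKM. Below SPARC, LUM and DCN, fn1, fibronectin, had 336 and 208 FPKM. MGP, an inhibitor of calcification, had 176 and 247 FPKM, and CTHRC1, a secreted regulator of collagen, had 147 and 96.7 FPKM. TNC, tenascin C, had 45.3 and 121 FPKM, and LOXL1, which cross-links elastin, had 64.7 and 251 FPKM. TNC and LOXL1 were over 2-fold higher in library 2. ELN, elastin, had 31.2 and 50.3 FPKM, and FBN1, fibrillin 1, had 53.1 and 29.2 FPKM. KERA and EPYC, proteoglycans of cornea and cartilage, were below 1 FPKM.

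Chains of collagen types I, VI and III were the highest of the collagen list by the lower value. Of 20 fibrillar and associated collagen entries 15 were expressed. COL6A2 and COL6A1, which form beaded filaments, had 538 and 519 FPKM (COL6A2) and 390.3 and 336 FPKM (COL6A1), and COL3A1, the type III chain, had 379 and 279.9 FPKM. COL6A3 had 99.7 and 97.3 FPKM. COL1A2 lay wholly above them. COL5A2, which nucleates fibrils, had 81.4 and 83.2 FPKM, and COL12A1, a fibril-associated collagen, had 16.7 and 24.9 FPKM. COL2A1 and COL9A1, collagens of cartilage, were listed at 0, and COL10A1 was below 1 FPKM. Basement membrane entries were expressed in 22 of 28 cases, with a median of 8.75 FPKM. COL4A1 and COL4A2, the common type IV collagen chains, had 81 and 66.3 FPKM (COL4A1) and 44.1 and 42.3 FPKM (COL4A2). LAMB1 and LAMC1, laminin chains of many tissues, had 59.3 and 105 FPKM (LAMB1) and 19.5 and 42.3 FPKM (LAMC1). LAMA3 and LAMB3, chains found in the epidermal laminin, had 5.22 and 11.3 FPKM (LAMA3) and 5.39 and 12.7 FPKM (LAMB3). COL17A1, the hemidesmosome collagen, had 14.1 and 70.1 FPKM, COL18A1 had 60.1 and 208 FPKM, and NID1, the linker nidogen, had 46.8 and 114 FPKM. Of the 22 expressed entries 17 were higher in library 2, and 11 were over 2-fold apart, beside 4 of the 15 other collagens and 10 of the 42 non-collagen matrix entries.

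Proteases and their inhibitors were expressed in 35 of 35 cases. CSTA, a cystatin inhibitor of cysteine proteases in stratified epithelia, had 6273 and 629 FPKM, almost 10-fold apart and higher in library 1. TIMP2, an inhibitor of matrix metalloproteases, had 498 and 914 FPKM, and CST3, a secreted cystatin, had 542 and 424 FPKM. CTSK and CTSB, lysosomal cathepsins, had 471 and 601 FPKM (CTSK) and 306 and 427 FPKM (CTSB). MMP2, a gelatinase, had 159.7 and 171 FPKM, MMP13, a collagenase, had 55.5 and 148 FPKM, and MMP9 had 15.8 and 43.1 FPKM. MMP7, the protease matrilysin, had 71.8 and 3.8 FPKM and was nearly 19-fold apart. SERPINH1, the collagen chaperone, had 346 and 265 FPKM, and HTRA1, a secreted serine protease, had 681 and 694 FPKM.

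Receptors for matrix were led by ITGB1, the beta chain shared by most matrix integrins, with 194 and 174 FPKM. Of 16 integrin entries 15 were expressed. ITGB5 had 66.9 and 63.5 FPKM and ITGA8, a receptor of mesenchymal and smooth muscle cells, had 44.9 and 79.9 FPKM. ITGAV and ITGA1, alpha chains of a vitronectin and a collagen receptor, had 28.8 and 20.1 FPKM (ITGAV) and 19 and 20.2 FPKM (ITGA1). ITGA6 and ITGB4, the hemidesmosome pair, had 16.1 and 12.6 FPKM (ITGA6) and 9.26 and 20.2 FPKM (ITGB4). ITGA2B, the platelet integrin, was listed at 0. Among adhesion genes 28 of 33 were expressed. GJA1, the gap junction protein connexin 43, had 2016 and 831 FPKM, and GJB6, connexin 30, had 125 and 268 FPKM. CD99, a surface glycoprotein, had 196 and 203 FPKM, and CTNNA1, the catenin that ties cadherins to actin, had 109.5 and 126 FPKM. CDH11, a mesenchymal cadherin, had 78 and 66.1 FPKM, CDH1, epithelial cadherin, had 30.9 and 48.1 FPKM, and CDH3 had 14.5 and 36.1 FPKM. CDH2, neural cadherin, had 1.98 and 6.13 FPKM, wholly below the other 3 cadherins.

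**Figure D5:**
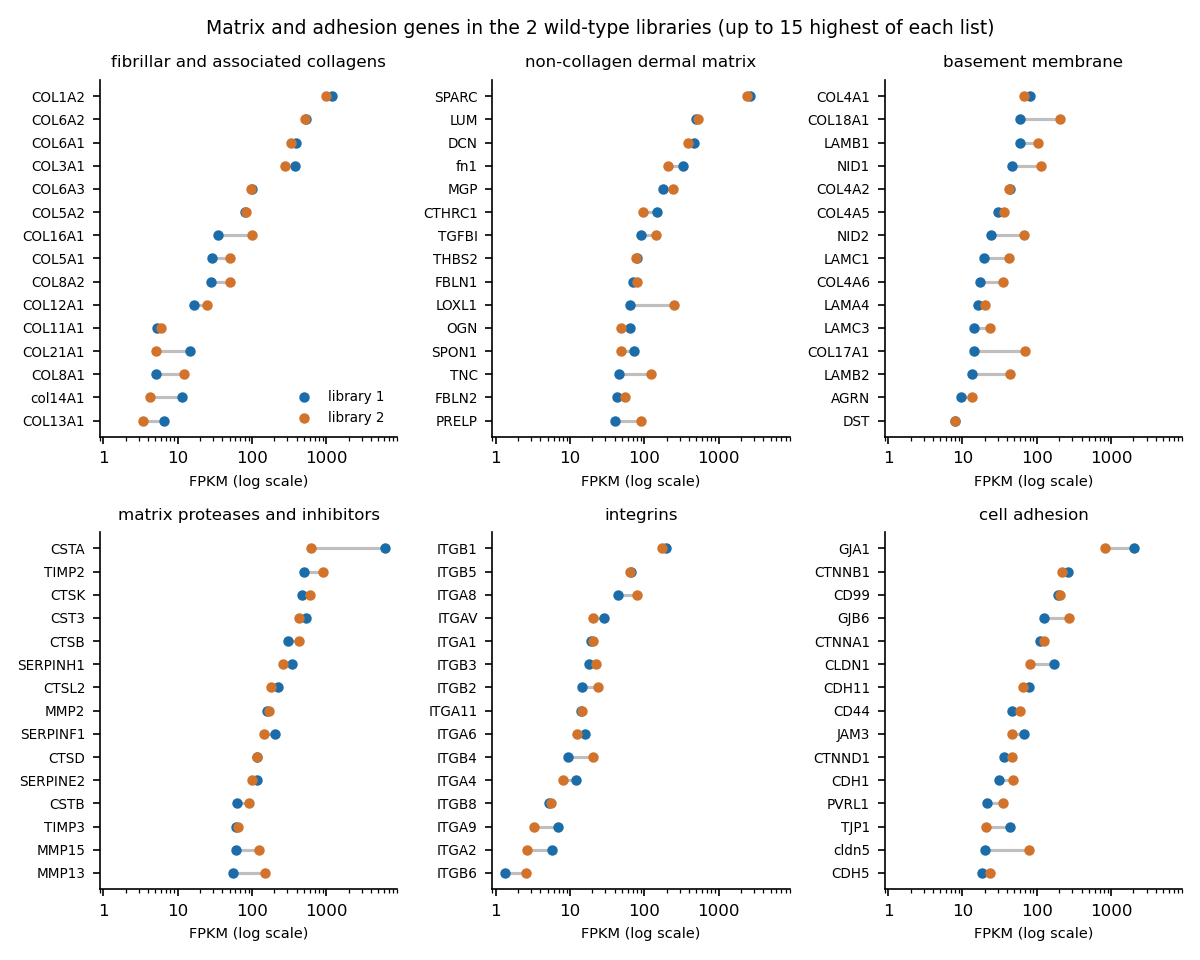
FPKM (horizontal, log scale) in wild-type library 1 and library 2 for up to 15 of the highest expressed entries of 6 matrix, protease, integrin and adhesion lists, joined by a grey line. SPARC and COL1A2 exceed 1000 FPKM in both libraries, and CSTA at 6273 and 629 FPKM has the longest line of its panel.

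Transcription factors of limb and skin had 34 of 45 entries expressed and a median of 5.86 FPKM, beside 67.9% and 4.30 FPKM over all named entries. After PRRX1, SNAI2, a factor of mesenchyme and basal epidermis, had 109.9 and 110.5 FPKM. ZEB2, a factor of mesenchyme, had 55.4 and 45.5 FPKM. MSX2 and DLX3, homeobox factors of skin appendages, had 30.3 and 38 FPKM (MSX2) and 19.4 and 24.6 FPKM (DLX3). TBX15, a dermal factor, had 21 and 16.5 FPKM, and LMX1B, which marks dorsal limb, had 7.85 and 7.99 FPKM. TBX5, the forelimb factor, had 1.36 and 1.2 FPKM, and the hindlimb factors TBX4 and PITX1 had 0.67 and 0.251 FPKM (TBX4) and 0.20 and 0 FPKM (PITX1). TBX5 was thus wholly above TBX4 at a low level. EN1, a factor of ventral limb ectoderm, had 0.113 and 0.0963 FPKM. FOXN1, a factor of keratinocytes in skin appendages, had 6.86 and 9.0 FPKM, while LHX2 was listed at 0. Of 35 HOX entries 21 were expressed, beside 67.9% of all named entries. The HOXA cluster gave 10 of 14, the HOXB cluster 4 of 8 and the HOXD cluster 7 of 8, while all 5 HOXC entries were listed at 0. HOXD8 was the highest HOX entry by its lower value with 21.5 and 35.6 FPKM, and HOXD10 had 8.19 and 8.37 FPKM. The genes at the end of the clusters that mark the hand were low, with HOXD13 at 0 and 2.74 FPKM and 3 HOXA13 entries all below 0.1 FPKM. Several HOXA names stand on more than 1 entry, which can share reads.

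Genes of the cell division cycle were expressed throughout, all 32 entries of that list with a median of 14.3 FPKM. H2AFZ, a histone variant, had 242 and 166 FPKM. STMN1, a microtubule regulator of dividing cells, had 305 and 194 FPKM. PCNA, the DNA polymerase clamp, had 88.5 and 77.4 FPKM, and UBE2C and CDK1, of mitosis, had 90.8 and 83.2 FPKM (UBE2C) and 87.1 and 59.7 FPKM (CDK1). TOP2A had 17.2 and 14 FPKM and MKI67 had 11.6 and 7.52 FPKM. Of the 32 entries 27 were higher in library 1. Immediate early genes were also high. JUN and FOS, which form the AP-1 factor, had 184 and 335 FPKM (JUN) and 147 and 369.7 FPKM (FOS), and EGR1 had 84.7 and 55.2 FPKM. IER5 had 118 and 335 FPKM, BTG2, which restrains division, had 186 and 142 FPKM, and HSPB1, a small heat shock protein, had 179 and 337 FPKM. Of 16 immediate early and stress entries 15 were expressed and 7 of these were over 2-fold apart. Of 17 interferon-stimulated entries, B2M among them, 15 were expressed, with a median of 7.83 FPKM. IFI27L2 had 133 and 121 FPKM, IRF1 and IRF8, interferon regulatory factors, had 25.9 and 34.5 FPKM (IRF1) and 25.3 and 41.8 FPKM (IRF8), and Mx, an antiviral GTPase, had 3.86 and 20.1 FPKM. Of the glycolysis list 18 of 20 entries were expressed. GAPDH had 2140.0 and 1469 FPKM and ENO1, enolase, had 924 and 599 FPKM, PKM, pyruvate kinase, had 350.3 and 435 FPKM, ALDOC and PGAM1 had 474 and 645 FPKM (ALDOC) and 338 and 476 FPKM (PGAM1), while LDHA and LDHB, the lactate dehydrogenase chains, had 323 and 423 FPKM (LDHA) and 340.0 and 229 FPKM (LDHB). Chaperones were expressed in 28 of 30 cases, 23 of them higher in library 1, and PPIB, of the secretory pathway, had 1490.4 and 1453 FPKM. HSP90AA1, a cytosolic chaperone, had 367 and 239 FPKM, and HSPA5, of the endoplasmic reticulum, had 308 and 249 FPKM.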

How the data were processed

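RNA of 5 pooled follicles per library was sequenced with standard Illumina libraries, per the labels' protocols. The authors deposited FPKM for each gene in a single table. TopHat2 2.1.0, Cufflinks 2.2.1 and the build galGal4 are named in the submitters' processing notes. The unit is read from these notes and the values, since the header does not name it. Scaling between libraries, strand and the handling of shared reads are not stated in the sources used here. The values are divided by transcript length, so levels of short transcripts depend most on how length was corrected.

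Entries whose name is an Ensembl identifier were left out of the ranking. Of the named entries 504 share a name with another entry, and reads can be shared between such entries. Of the named entries 11434 match a RefSeq symbol, and 12669 a symbol or synonym. For 45 lists of 1060 genes, 832 genes matched a named entry, case ignored. Expressed means at least 1 FPKM in both libraries. Named in the text are the 50 highest entries (ribosomal ones summarised), the highest 5 of each list, signalling genes below 1 FPKM and defining markers, except some entries that are counted but not reported here by name. Further members, vimentin, HTRA1, MT4 and the HOX genes were chosen after their values were seen. Members and lists were chosen with earlier results of these data known. Ranking and the ratio of FPKM per fragment were tested on simulated data. Python 3.11.15, pandas 2.3.3 and matplotlib 3.10.9 were used. No test was made, so p-values are not given, and the planned description of protein lengths and promoters was not run, as no nucleotide or protein sequences were used. Alternatives to the ranking value, scaling, threshold and entries are given in the closing section.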

Additional observations from a re-analysis of the deposited data

How the results depend on the processing

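No paired analysis was possible because only 1 group was described. Counts of expressed entries at 1, 10, 100 and 1000 FPKM stayed within 1.5 times under every alternative run: the mean or the higher of both libraries, sums set to the same total, median-ratio centring, each library alone, entries of a name summed and small RNA genes left out. Of the 50 highest entries 45 to 50 were shared with these orders, 45 and 46 of them with either library alone. The median over lists of the list median was 7.97 FPKM, and moved to 10.6 with the mean, 13.4 with the higher value, and between 8.90 and 12.01 with 1 library alone. The 10 highest entries held 45.4% of the summed FPKM on average, 32.8% among named entries only, and 42.6% to 48.2% in single libraries. The median absolute log2 ratio was 0.3495 with a pseudocount of 0.1, 0.229 without the filter and 0.321 after centring. In single lists, a limit of 5 FPKM moved the count of expressed members by over 1.5 times in 10 of 45, and the higher value and library 2 alone each moved it in 1, alpha keratins, to 5 and 4. For list medians the limit was the standard deviation of the 2 single-library medians, which is smaller than the gap between them. The median of the higher values exceeds that of the lower values by at least this gap. The move in 43 of 45 lists with the higher value was thus fixed by the limit. The library with the higher median passes it likewise, unless the medians are equal. Moves in 35 lists with library 2 alone and 19 with library 1 alone therefore do not measure robustness. The mean, which cannot lie below the lower value, moved 24. Sums set to the same total moved 5, and centring and entries of a name summed moved 1 each. Leaving out entries at 0, added after seeing the data, moved 14. Precision is limited by 2 libraries and by entries listed at 0.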

Other observations

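Outside the lists, several secreted and surface genes ranked among the 330 highest named entries. They were chosen after their values were seen. PENK, the precursor of enkephalin peptides, had 371 and 459.8 FPKM. IGFBP4, a carrier of insulin-like growth factors, had 165 and 1332 FPKM and was about 8-fold higher in library 2, while IGFBP7 had 192 and 416 FPKM. FABP5, an epidermal fatty acid carrier, had 855 and 863 FPKM and was nearly equal in both. LY6E, a surface protein, had 477 and 807 FPKM, and GPX3, a secreted glutathione peroxidase, had 349.7 and 396 FPKM. BLB1, an MHC class II chain of chicken, had 483 and 1949 FPKM and was over 4-fold higher in library 2. ITM2A had 344 and 359.6 FPKM, and RGS5, a marker of mural cells around vessels, had 156 and 189 FPKM.

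Of 977 entries with names of small RNA genes 955 were listed at 0 in both libraries and 18 were expressed. SNORA81 and SNORA73, small nucleolar RNAs, were the highest with 467 and 619 FPKM (SNORA81) and 437 and 219 FPKM (SNORA73). TCEB3, elongin A, ranked among the highest 100 named entries with 1941 and 1570.4 FPKM. In the RefSeq gene order of GRCg7b its neighbours are RPL11 and PITHD1, and the table lists no entry named RPL11. S100A10, the highest named entry, has THEM4 and LOC121107542 as neighbours in that order, and the table names no entry for them. CHURC1 has GPX2 and SPTB as neighbours there, and the table has entries of those names. Whether the TCEB3, S100A10 or CHURC1 entry holds reads of a neighbour was not tested.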
